A study of Homo sapiens with 5 samples.

Results

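The genes described here are the TGF-beta ligands TGFB1, TGFB2 and TGFB3, the receptors TGFBR1, TGFBR2 and TGFBR3, and the signal transducers SMAD2, SMAD3, SMAD4 and SMAD7. They were chosen by gene symbol, and all 10 were among the 26364 names listed. Expression was measured by mRNA-seq in IMR-90, a line of normal fibroblasts from human lung, grown in medium with serum and collected 24 hr after siRNA transfection. Of the 5 libraries, 2 (Ctr-1 and Ctr-2) were from cells given a control siRNA (Ctr-KD), and 3 from cells given an siRNA against NSD2 (NSD2-KD). NSD2, also called WHSC1, is a methyltransferase for lysine 36 of histone H3, and the comparison asked which messages differ soon after it is depleted. The siRNA differed between the 3 NSD2-KD libraries, which are called NSD2-1, NSD2-2 and NSD2-3 after it. A difference between siRNAs and a difference between cultures thus cannot be told apart in NSD2-KD cells, and the knockdown was transient.

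TGF-beta ligands are secreted in a latent form that is held in the extracellular matrix until it is released. The active ligand binds the type II receptor, which phosphorylates the type I receptor, and the type I receptor then phosphorylates SMAD2 and SMAD3. These join SMAD4 and enter the nucleus, where they raise matrix, cytoskeletal and cell cycle inhibitor genes in fibroblasts, and also SMAD7, which shuts the receptors off.

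The libraries held between 2473691 and 2845063 reads on genes. Values are read counts divided by the authors' size factor for each library and are called normalized counts, and 3 reads, the floor under which a gene is not told from 0, corresponded to between 2.76 and 3.28 of them. WHSC1 had 463 and 443 normalized counts in Ctr-1 and Ctr-2 and 90.2, 81.9 and 87.9 in NSD2-1, NSD2-2 and NSD2-3, which is 18.1% to 19.9% of the Ctr-KD mean with every siRNA (log2 difference −2.37, SE 0.12, limma adjusted p = 0.000464; 0.0926 without Ctr-1 and 0.0788 without Ctr-2). All 10 fibroblast markers examined, such as COL1A1 and VIM, had a mean of at least 10 normalized counts in these libraries. The epithelial marker KRT5, the endothelial markers PECAM1 and CDH5, and the immune markers PTPRC, CD3E and TYROBP were at 0 in every library, and the summed epithelial list ran from 159 to 162 normalized counts in Ctr-KD and from 149.7 to 264.5 in NSD2-KD libraries, nearly all of it from the keratins KRT8 and KRT18. The highest sum was in NSD2-3, and its part in the results was not tested.

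The proximal promoters of the ligands are shown because TGFB1 and TGFB2 had different patterns over the siRNAs and TGFB3 was near the floor. The sequences are from RefSeq (GRCh38.p14), on the strand of the gene, and run over the 100 bases that end just before the annotated start. Both starts listed for TGFB3 are shown. Capitals mark matches on either strand to a GC box (GGGCGG), an E-box (CACGTG), a variant of the cyclic AMP response element (CACGTCA) or a TATA box (TATAAA).
TGFB1, chr19:41353923-41354022, minus strand: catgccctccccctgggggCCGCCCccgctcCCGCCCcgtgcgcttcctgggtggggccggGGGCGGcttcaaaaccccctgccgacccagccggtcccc
TGFB2, chr1:218345236-218345335, plus strand: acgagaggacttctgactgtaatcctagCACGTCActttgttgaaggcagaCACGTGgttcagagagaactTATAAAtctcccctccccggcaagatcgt
TGFB3 first start, chr14:75983012-75983111, minus strand: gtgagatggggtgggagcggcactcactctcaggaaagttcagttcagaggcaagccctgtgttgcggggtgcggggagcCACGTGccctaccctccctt
TGFB3 second start, chr14:75981996-75982095, minus strand: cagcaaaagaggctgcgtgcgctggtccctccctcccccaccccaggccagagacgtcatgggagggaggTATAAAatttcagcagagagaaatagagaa

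The TGFB1 window was rich in GC boxes, with 7 in the 300 bases from 250 before to 50 after the start, and had none of the other motifs. The TGFB2 window had CACGTCA at position −72, the E-box at −49 and the TATA box at −29 from the start. It had no GC box in its 300 bases. The first TGFB3 window had an E-box at −20 and no TATA box, and the second had a TATA box at −30 and no E-box. The second also holds gacgtca, left unmarked, which was not searched for. It differs from CACGTCA in its first base, and there CACGTCA is the form that departs from the consensus element. Over all 35116 promoter windows of this length, 45.0% held a GC box, 11.5% the TATA box, 7.26% the E-box and 1.97% the letters CACGTCA. These matches describe letters in the windows and were not tested for binding.

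TGFB1 was the most abundant ligand message and TGFB2 the next, and their values in NSD2-KD cells followed different patterns. TGFB1 (chr19:41807492-41859827 in GRCh37, minus strand, 7 exons), the ligand best known in wound healing and fibrosis, had 389 and 407 normalized counts in Ctr-1 and Ctr-2 and 433, 517 and 453 in NSD2-1, NSD2-2 and NSD2-3. Every NSD2-KD library was above both Ctr-KD libraries. The means were 398 ± 13.2 (SD, n = 2) and 468 ± 43.5 (SD, n = 3), and the log2 difference of 0.23 (SE 0.11, 95% interval −0.03 to 0.49) did not pass the test (limma adjusted p = 0.600). As in any bulk sample, more RNA per cell and more cells that make it cannot be told apart.

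TGFB2 (chr1:218518678-218617961 in GRCh37, plus strand, 7 exons), a form that binds the type II receptor well only with the help of TGFBR3, had 141 and 150.2 normalized counts in Ctr-1 and Ctr-2 and 62.6, 60.1 and 155 in NSD2-1, NSD2-2 and NSD2-3. It was low with siRNAs NSD2-1 and NSD2-2, at 43.0% and 41.3% of the Ctr-KD mean, and was at the Ctr-KD level with NSD2-3, at 106.6%. The fitted difference over all 3 was the largest of the tested members (log2 −0.79, SE 0.37, 95% interval −1.64 to 0.06, limma adjusted p = 0.580). Each library was also left out in turn. Without NSD2-3, the library that did not show the fall, the log2 difference was −1.23 (limma adjusted p = 0.0369). In that fit 22 of all genes were called lower, where the main fit had 6. Without NSD2-1 or NSD2-2 the log2 difference was −0.59 and −0.56 and did not pass (limma adjusted p = 0.614 and 0.660). The pass thus rests on which library was left out.

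TGFB3, the third ligand, had 1 and 3 reads in Ctr-1 and Ctr-2 and 2, 0 and 0 reads in NSD2-1, NSD2-2 and NSD2-3. Both groups were at or under the floor of 3 reads, and no difference could be measured at this depth.

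**Figure D1:**
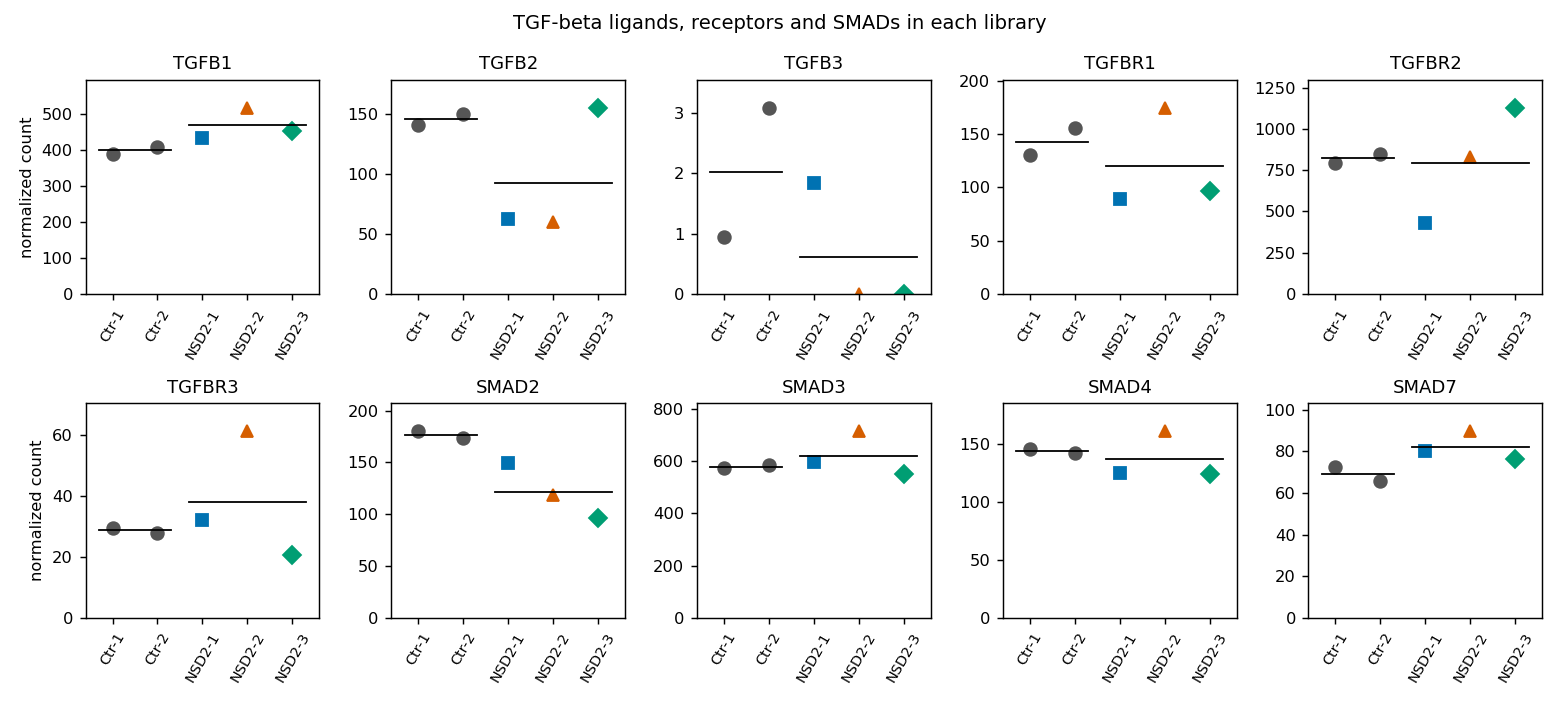
Normalized counts (vertical axes, each from 0) of the 10 genes in the 5 libraries (horizontal axes); grey circles are Ctr-KD, colored symbols the 3 siRNAs against NSD2, and lines the group means. TGFB2 was near 60 in NSD2-1 and NSD2-2 and at 155 in NSD2-3, TGFBR2 ran from 428 in NSD2-1 to 1128 in NSD2-3, and SMAD2 was below both Ctr-KD libraries in every NSD2-KD library.

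Reads from neighboring genes bear on both ligands. TGFB2 shares exons with TGFB2-OT1 on the same strand, which had 23.8 and 27.8 normalized counts in Ctr-1 and Ctr-2 and 11, 6.55 and 25.4 in NSD2-1, NSD2-2 and NSD2-3, like TGFB2 low in NSD2-1 and NSD2-2 and not in NSD2-3 (log2 difference −1.0, limma adjusted p = 0.593). Reads in the shared part cannot be assigned to either gene. TGFB2-AS1, on the other strand, had at most 6 reads in a library. TGFB1 shares exon positions with HNRNPUL1 on the other strand, which had 904 and 967 normalized counts in Ctr-1 and Ctr-2 and 673, 761 and 855 in NSD2-1, NSD2-2 and NSD2-3. Every NSD2-KD library was below both Ctr-KD libraries for HNRNPUL1, the opposite direction from TGFB1 (log2 difference −0.30, limma adjusted p = 0.493). The library kit does not mark strand, so reads where both genes overlap cannot be told apart.

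The receptor messages varied widely from siRNA to siRNA. TGFBR2 (chr3:30648093-30735634 in GRCh37, plus strand, 7 exons), the type II receptor kinase that starts the signal, had 795 and 849.8 normalized counts in Ctr-1 and Ctr-2 and 428, 830.2 and 1128 in NSD2-1, NSD2-2 and NSD2-3. It was lowest of all libraries in NSD2-1, at the Ctr-KD level in NSD2-2 and highest in NSD2-3. The average over the siRNAs therefore showed little, with a log2 difference of −0.16 (SE 0.33, 95% interval −0.92 to 0.61, limma adjusted p = 0.922).

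TGFBR1 (chr9:101866320-101916474 in GRCh37, plus strand, 9 exons), the type I receptor kinase that phosphorylates the SMADs, had 131 and 155 normalized counts in Ctr-1 and Ctr-2 and 89.3, 175 and 96.6 in NSD2-1, NSD2-2 and NSD2-3. NSD2-1 and NSD2-3 were below both Ctr-KD libraries and NSD2-2 was above them (log2 difference −0.31, SE 0.28, limma adjusted p = 0.795). TGFBR3 (chr1:92145900-92371892 in GRCh37, minus strand, 17 exons), also called betaglycan, presents ligand to the type II receptor and had 29.5 and 27.8 normalized counts in Ctr-1 and Ctr-2 and 32.2, 61.2 and 20.5 in NSD2-1, NSD2-2 and NSD2-3. Its highest and lowest values were both in NSD2-KD cells, and the fit gave a log2 difference of 0.26 (SE 0.40, limma adjusted p = 0.894).

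Of the SMADs, SMAD2 was lower in every NSD2-KD library. SMAD2 (chr18:45335328-45457517 in GRCh37, minus strand, 11 exons), one of the pair of SMADs that the TGF-beta receptors phosphorylate, had 180 and 174 normalized counts in Ctr-1 and Ctr-2 and 149, 119 and 96.6 in NSD2-1, NSD2-2 and NSD2-3. The groups did not overlap, and their means were 177 ± 4.37 (SD, n = 2) and 122 ± 26.3 (SD, n = 3). The log2 difference of −0.56 (SE 0.19, 95% interval −0.99 to −0.13) had an unadjusted p of 0.0171 in limma, and the adjusted p was 0.401.

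SMAD3 (chr15:67356101-67487511 in GRCh37, plus strand, 9 exons), the other of that pair and the one that binds DNA directly, had 573 and 585 normalized counts in Ctr-1 and Ctr-2 and 596, 714 and 553 in NSD2-1, NSD2-2 and NSD2-3. NSD2-3 was the lowest library and NSD2-2 the highest (log2 difference 0.09, SE 0.12, limma adjusted p = 0.872). SMAD4 (chr18:48554898-48611415 in GRCh37, plus strand, 12 exons), the partner common to the TGF-beta and BMP branches, had 146 and 142 normalized counts in Ctr-1 and Ctr-2 and 125, 161 and 124 in NSD2-1, NSD2-2 and NSD2-3. Ctr-KD lay inside the range of the NSD2-KD libraries, and the log2 difference was −0.08 (SE 0.16, limma adjusted p = 0.910).

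SMAD7 (chr18:46446223-46477335 in GRCh37, minus strand, 4 exons), the inhibitory SMAD that blocks the type I receptor, had 72.4 and 65.8 normalized counts in Ctr-1 and Ctr-2 and 80.1, 89.6 and 76.1 in NSD2-1, NSD2-2 and NSD2-3. Each NSD2-KD library was above both Ctr-KD libraries, by a log2 difference of 0.24 (SE 0.16, 95% interval −0.13 to 0.61, limma adjusted p = 0.720).

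**Figure D2:**
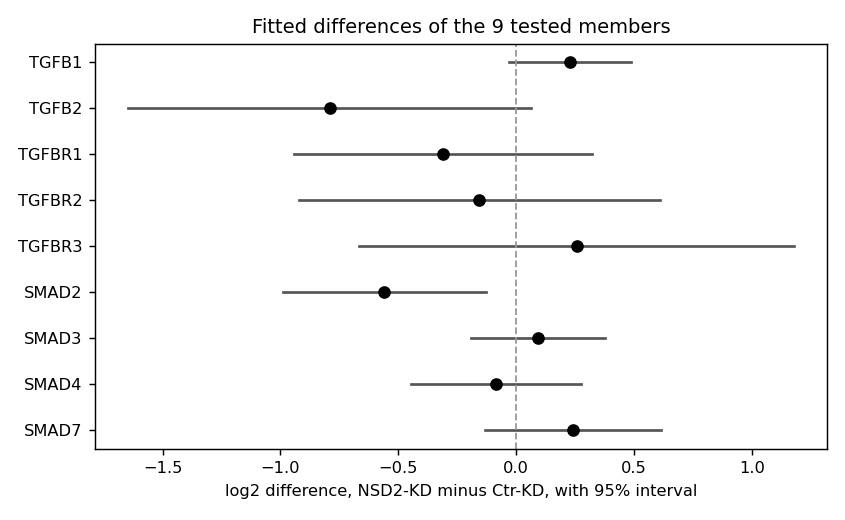
Log2 difference, NSD2-KD minus Ctr-KD (horizontal axis, points), with its 95% interval from limma (lines) for the 9 genes tested (vertical axis). The interval of SMAD2, −0.99 to −0.13, is the one that does not reach 0, before adjustment for the number of genes.

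Of the 10 genes, 9 had a mean normalized count of at least 10 and were tested, and TGFB3 was not. With limma, 0 of the 9 were called lower or higher at an adjusted p under 0.05, where 0.053% of the 11313 genes tested were called lower and 0.0354% higher. edgeR and DESeq2 on the recovered reads also called 0 of them. Among all 11313 genes, edgeR called 11 lower and 5 higher, and DESeq2 44 lower and 14 higher. With an unadjusted p under 0.05, 1 of the 9 (SMAD2) was lower and 0 were higher, beside 4.99% and 4.19% of all genes tested. The NSD2-KD libraries were all below both Ctr-KD libraries for 1 gene (SMAD2), and all above them for 2 (TGFB1 and SMAD7), beside 13.9% and 13.8% of all genes. The median log2 difference was −0.08 over the 9 genes and −0.01 over all genes tested. The intervals leave room for changes of some size: for SMAD4 they ran from 0.734 to 1.21 times the Ctr-KD level, for SMAD3 from 0.875 to 1.30 times, and for TGFBR2 from 0.528 to 1.53 times.

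Set against Ctr-KD one siRNA at a time, the members with a ratio away from 1 differed between the siRNAs. These ratios compare the reads of 1 library with those of both Ctr-KD libraries, with exact 95% intervals that cover counting error only and not the spread between cultures. The share of all genes with an interval that excludes 1 was not computed. The counts below thus describe the 10 genes and do not set them apart from others. With NSD2-1, the intervals of 3 of the 10 genes excluded 1, all below it: TGFB2 (0.430, 0.326 to 0.562), TGFBR2 (0.521, 0.469 to 0.578) and TGFBR1 (0.627, 0.493 to 0.791). With NSD2-2 there were 6 such genes. TGFB2 (0.413, 0.304 to 0.553) and SMAD2 (0.672, 0.538 to 0.835) were below 1, and 4 were above it: TGFBR3 (2.13, 1.45 to 3.13), TGFB1 (1.30, 1.16 to 1.46), SMAD3 (1.23, 1.12 to 1.36) and TGFBR1, whose ratio of 1.23 had a lower bound close to 1.

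With NSD2-3 there were 4. SMAD2 (0.546, 0.432 to 0.684) and TGFBR1 (0.678, 0.534 to 0.855) were below 1, and TGFBR2 (1.37, 1.27 to 1.48) and TGFB1 (1.14, 1.01 to 1.28) were above it. No gene of the family had an interval that excluded 1 in the same direction with all 3 siRNAs. For SMAD2 the interval with NSD2-1 was 0.695 to 1.02, and for TGFB1 it was 0.971 to 1.22. For SMAD4 and SMAD7 no siRNA gave an interval that excluded 1. The knockdown of WHSC1 itself was nearly equal in the 3 libraries.

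**Figure D3:**
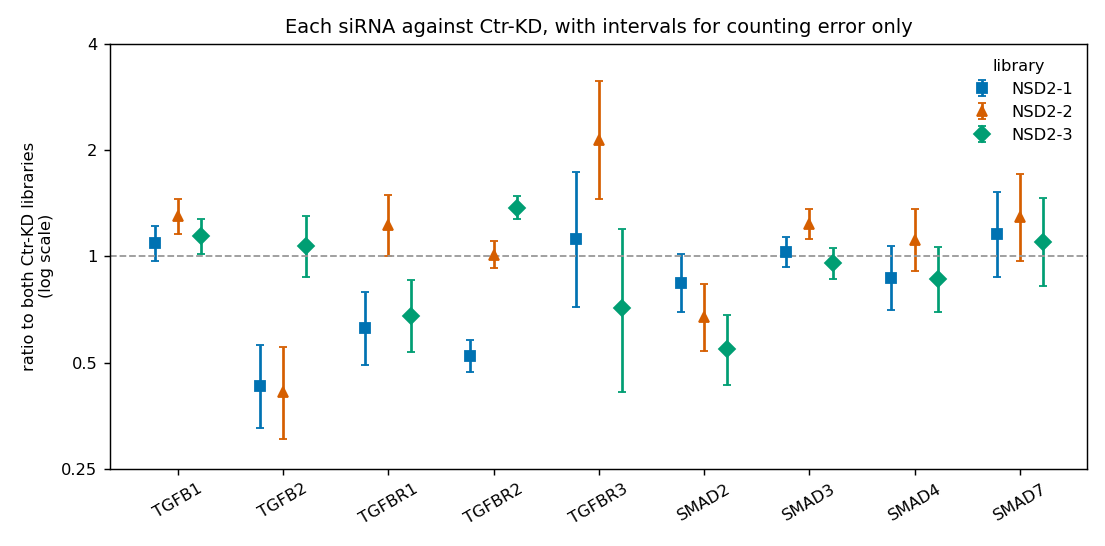
Ratio of each NSD2-KD library to the Ctr-KD libraries (vertical axis, log scale) for 9 genes (horizontal axis); bars are exact 95% intervals for counting error only. TGFB2 with NSD2-3 (1.07) stands apart from NSD2-1 (0.430) and NSD2-2 (0.413), and TGFBR2 runs from 0.521 to 1.37.

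The spread among the siRNAs was large for TGFBR2, TGFB2 and TGFBR1 beside that of other genes. Over 7586 genes with a mean of at least 50 normalized counts, the highest NSD2-KD library was a median of 1.25 times the lowest. For TGFBR2 it was 2.64 times, a ratio reached by 1.82% of those genes. For TGFB2 it was 2.58 times, reached by 1.99%, and for TGFBR1 1.96 times, reached by 6.42%. SMAD2 (1.54 times), SMAD4 (1.30 times), SMAD3 (1.29 times), TGFB1 (1.19 times) and SMAD7 (1.18 times) were nearer to the median, and TGFBR3 was under the minimum. The Ctr-KD libraries stayed close to each other, and for TGFBR2 the variation was 1.81 times what counting error gives between the Ctr-KD libraries and 166 times among the NSD2-KD libraries (chi-square per degree of freedom). That measure grows with the number of reads and does not by itself mark TGFBR2 as unusual. For the abundant FN1 it was 289 among the NSD2-KD libraries, with the highest only 1.17 times the lowest.

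Ratios between members of the family within a library do not depend on how libraries were scaled. The ratio of TGFB2 to TGFB1 was 0.363 and 0.369 in Ctr-1 and Ctr-2 and 0.144, 0.116 and 0.343 in NSD2-1, NSD2-2 and NSD2-3, so all NSD2-KD libraries were below Ctr-KD, NSD2-3 by little. The ratio of SMAD3 to SMAD2 was 3.18 and 3.37 in Ctr-1 and Ctr-2 and 4.0, 6.0 and 5.72 in NSD2-1, NSD2-2 and NSD2-3, all above Ctr-KD. Its geometric mean in NSD2-KD was 1.58 times that in Ctr-KD. These are ratios of normalized counts, not of molecules, because the transcripts differ in length.

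The ratio of the inhibitor SMAD7 to the sum of SMAD2 and SMAD3 was 0.0962 and 0.0867 in Ctr-1 and Ctr-2 and 0.107, 0.107 and 0.117 in NSD2-1, NSD2-2 and NSD2-3, again all above Ctr-KD. The ratio of TGFBR1 to TGFBR2 was 0.164 and 0.183 in Ctr-1 and Ctr-2 and 0.209, 0.211 and 0.0856 in NSD2-1, NSD2-2 and NSD2-3, which overlapped Ctr-KD in range, since NSD2-1 and NSD2-2 were above and NSD2-3 below. With 2 libraries against 3, the exact two-sided permutation test has 10 splits and cannot go below p = 0.1. It gave exact p = 0.2 for the first ratio, 0.2 for SMAD3 to SMAD2, 0.1 for SMAD7 to SMAD2 plus SMAD3 and 1.0 for TGFBR1 to TGFBR2, and no adjusted p over the 4 ratios was under 0.267.

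**Figure D4:**
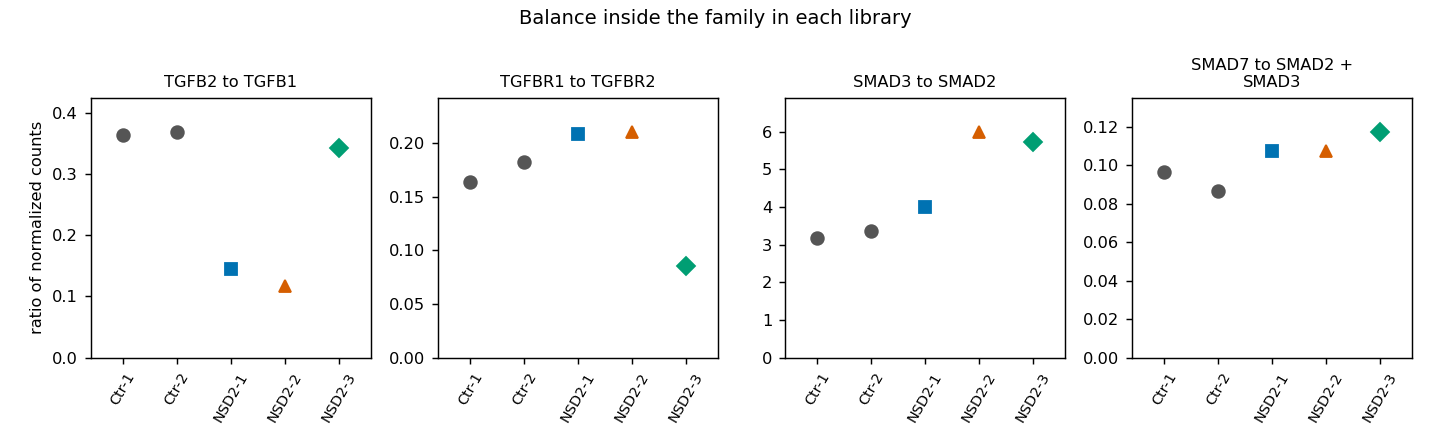
Ratios of normalized counts between members of the family (vertical axes, each from 0) in the 5 libraries (horizontal axes). SMAD3 to SMAD2 was 3.18 and 3.37 in Ctr-KD and between 4.0 and 6.0 in NSD2-KD, and TGFB2 to TGFB1 was low in NSD2-1 and NSD2-2.

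To compare levels between genes, reads were divided by transcript length and library total (RPKM, with the canonical GENCODE transcript). In Ctr-KD cells TGFBR2 had the highest level, 68.6 ± 2.92 RPKM (SD, n = 2), followed by TGFB1 at 54.1 ± 1.57 and SMAD3 at 33.8 ± 0.388. TGFB2 (9.38 ± 0.380), TGFBR1 (8.32 ± 0.987), SMAD7 (7.82 ± 0.558) and SMAD4 (6.20 ± 0.141) followed at several-fold lower levels, and of these neighbors TGFBR1 and SMAD7 overlapped in their libraries. SMAD2 (1.93 ± 0.0559), TGFBR3 (1.71 ± 0.0812) and TGFB3 (0.222 ± 0.165) had the lowest levels.

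This order rests on the transcript taken as the gene's length. The canonical SMAD2 transcript is 34626 bases long, and with the shortest transcript that has a consensus coding sequence, 12075 bases, SMAD2 would be at 5.54 RPKM. With the shortest such transcript for each gene, TGFBR1 would be at 35.1, SMAD7 at 22.7 and SMAD3 at 191 RPKM, above TGFBR2. In NSD2-KD cells TGFBR2 and TGFB1 were at 66.1 ± 29.2 and 63.3 ± 4.83 RPKM (SD, n = 3) and overlapped: TGFBR2 was under TGFB1 in NSD2-1 (36.1 and 59.6 RPKM) and in NSD2-2 (67.8 and 68.8 RPKM), and above it in NSD2-3 (94.3 and 61.7 RPKM).

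TGFB2 had the largest absolute log2 difference of the family, and the genes with the most similar profile over the 5 libraries were COLGALT2, FAM73A and NXT2. Their root mean square distance to TGFB2, on centered log2(normalized count + 1), was 0.109, 0.112 and 0.151, while the median over 11312 genes was 0.647. FAM73A, for example, had 93.4 and 105 normalized counts in Ctr-1 and Ctr-2 and 51.5, 41.5 and 118 in NSD2-1, NSD2-2 and NSD2-3. With 5 libraries such likeness describes these samples only.

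The other genes of the pathway were followed in 6 lists with 146 genes, of which 132 were tested. limma called 0 of them lower and 0 higher, beside 0.053% and 0.0354% of all genes tested. With an unadjusted p under 0.05, 8 were lower and 2 higher, beside 4.99% and 4.19% of all genes tested. edgeR called 0, beside 11 lower and 5 higher among all 11313 genes tested. DESeq2 called 1 lower (RBL1) and 1 higher (CDKN1A), beside 44 lower and 14 higher among all of them. The NSD2-KD libraries were all below Ctr-KD for 18 of the 132 genes and all above for 11, beside 13.9% and 13.8% of all genes tested, and the median log2 difference over the 132 was −0.03.

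Of 24 genes for latency, storage and activation of the ligands, 21 were tested, with a median log2 difference of 0.03 and 0 genes at an unadjusted p under 0.05. THBS1, which releases active TGF-beta from its latent complex, had 5056 and 5299 normalized counts in Ctr-1 and Ctr-2 and 6552, 8945 and 5136 in NSD2-1, NSD2-2 and NSD2-3. It overlapped Ctr-KD through NSD2-3 (log2 difference 0.37, SE 0.20, limma adjusted p = 0.623). DCN, a proteoglycan that binds TGF-beta, was above both Ctr-KD libraries in each NSD2-KD library (log2 difference 0.20, limma adjusted p = 0.575), and LTBP1, which anchors the latent ligand in the matrix, was highest in NSD2-2 (2614) and lowest in NSD2-3 (1333), around 2082 and 2107 in Ctr-KD. ITGB3, a subunit of an integrin that can activate the latent ligand, had a log2 difference of −0.13.

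All 16 receptor partners and trafficking genes were tested, and 14 had a positive log2 difference, as did 5491 of all 11313 genes tested. The median was 0.09, with 0 genes at an unadjusted p under 0.05. VASN, which binds and traps TGF-beta, was above Ctr-KD in every NSD2-KD library (log2 difference 0.19, limma adjusted p = 0.659). CD109, a TGF-beta co-receptor, had a log2 difference of 0.24 with overlapping libraries. MAP3K7, the TAK1 kinase of the SMAD-independent branch, had −0.13, and ZFYVE9, the anchor that brings SMAD2 and SMAD3 to the receptor, differed by a log2 value of 0.00.

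Of 21 negative regulators, 20 were tested, and their median log2 difference was −0.08. The ubiquitin ligases SMURF2 and WWP2 were above both Ctr-KD libraries in all NSD2-KD libraries (log2 differences 0.23 and 0.35, limma adjusted p = 0.568 and 0.565), while the deubiquitinase UCHL5 was below them (−0.39, limma adjusted p = 0.612). TGIF1, a SMAD corepressor, had 78.1 and 88.5 normalized counts in Ctr-1 and Ctr-2 and 81.0, 105 and 38.1 in NSD2-1, NSD2-2 and NSD2-3. It was low in NSD2-3 alone.

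Of 18 transcription partners of the SMADs, 14 were tested. EP300, an acetyltransferase that SMADs recruit, had 268 and 255 normalized counts in Ctr-1 and Ctr-2 and 327, 357 and 374 in NSD2-1, NSD2-2 and NSD2-3, all above Ctr-KD (log2 difference 0.43, SE 0.11, limma adjusted p = 0.274). RBL1, or p107, which forms a repressor complex with SMAD3 and E2F4 and was singled out after its values were seen, had 57.2 and 75.1 normalized counts in Ctr-1 and Ctr-2 and 27.6, 21.8 and 24.4 in NSD2-1, NSD2-2 and NSD2-3. It was low with each siRNA (log2 difference −1.38, SE 0.22, limma adjusted p = 0.138, DESeq2 adjusted p = 0.0163). Of the transcription factors ATF2, ETS1 and TFE3, ATF2 was low in NSD2-1 alone (46.0 normalized counts, against 90.5 and 80.2 in Ctr-KD) and ETS1 in NSD2-2 alone (254.5, against 412.5 and 400.2), while TFE3 had a log2 difference of 0.09.

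In the BMP and activin branch, a sister pathway that shares SMAD4, 29 of 34 genes were tested. At an unadjusted p under 0.05, 6 were lower and 0 higher, beside 4.99% and 4.19% of all genes tested. Of the 29, 9 were below Ctr-KD in every NSD2-KD library and 2 were above, beside 13.9% and 13.8% of all genes, and the list median was −0.06. SMAD9, a BMP-regulated SMAD, had 75.3 and 84.4 normalized counts in Ctr-1 and Ctr-2 and 58.0, 44.8 and 42.0 in NSD2-1, NSD2-2 and NSD2-3 (log2 difference −0.73, SE 0.20, limma adjusted p = 0.303). ID2, a classic BMP target that inhibits helix-loop-helix factors, had 202 and 184 normalized counts in Ctr-1 and Ctr-2 and 156, 83.0 and 153 in NSD2-1, NSD2-2 and NSD2-3 (log2 difference −0.61, SE 0.26, limma adjusted p = 0.539). Both were below Ctr-KD with every siRNA.

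The other 4 at an unadjusted p under 0.05 were singled out after their values were seen: SMAD1, the type I receptor ACVR1, the BMP antagonist NOG and the BMP target ID1, with log2 differences of −1.17, −0.51, −0.83 and −0.55. SMAD1 and NOG had at most 31.4 normalized counts in any library. Not every BMP-regulated SMAD and ID gene fell, which was also looked at after the values were seen. SMAD5 (mean 207 normalized counts) and ID4 (mean 10.7) overlapped Ctr-KD, with log2 differences of −0.03 and −0.15. ID3 was below Ctr-KD with every siRNA (−0.27). The activin type I receptor ACVR1B went the other way, above Ctr-KD in each NSD2-KD library (log2 difference 0.33, limma adjusted p = 0.593), and BMPR1A had 0.22 with overlapping libraries.

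Of 33 TGF-beta target genes, 32 were tested, with a median log2 difference of −0.03. CDKN1A, the p21 inhibitor of cyclin-dependent kinases and also a p53 target, had 1851 and 1905 normalized counts in Ctr-1 and Ctr-2 and 2455, 3955 and 3340 in NSD2-1, NSD2-2 and NSD2-3. All were above Ctr-KD (log2 difference 0.76, SE 0.17, limma adjusted p = 0.237, DESeq2 adjusted p = 0.0398). With a library left out, it passed in limma only without NSD2-1, its lowest NSD2-KD library (log2 difference 0.95, limma adjusted p = 0.0233).

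CTGF, a secreted matrix protein, had 1604 and 1652 normalized counts in Ctr-1 and Ctr-2 and 1134, 1045 and 1946 in NSD2-1, NSD2-2 and NSD2-3. Like TGFB2, it was low with NSD2-1 and NSD2-2 and not with NSD2-3 (log2 difference −0.30, SE 0.23, limma adjusted p = 0.760). KLF10, an early TGF-beta response gene, was below Ctr-KD with each siRNA, by little with NSD2-1 (log2 difference −0.33, limma adjusted p = 0.597). TIMP3, a metalloproteinase inhibitor, was high in NSD2-2 alone (1144 normalized counts, against 623 and 653 in Ctr-KD). The contractile and collagen targets of the list were looked at after their values were seen. The contractile genes CNN1 (−0.19) and TAGLN (−0.14) were below both Ctr-KD libraries in every NSD2-KD library, and TPM1 (−0.14) and ACTA2 (−0.04) overlapped. The collagen genes COL1A1 (−0.06), COL5A1 (−0.04), COL1A2 (−0.03) and COL3A1 (0.10) all overlapped, and none of these log2 differences passed the test in limma.

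**Figure D5:**
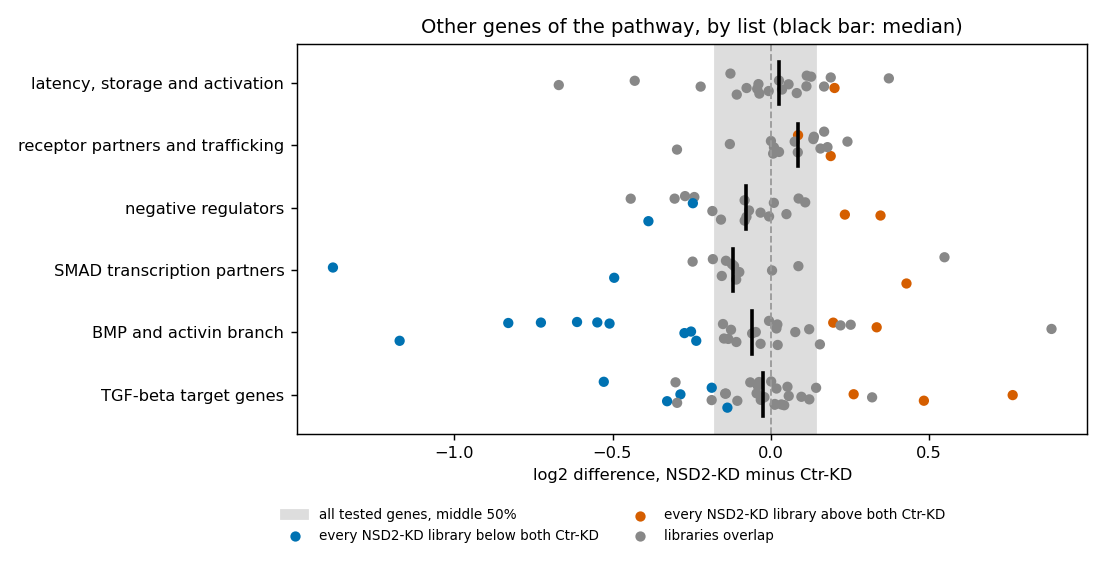
Log2 difference, NSD2-KD minus Ctr-KD (horizontal axis), of each tested gene in the 6 lists (rows); black bars are list medians, color marks genes with every NSD2-KD library below (blue) or above (orange) both Ctr-KD libraries, and the grey band holds the middle 50% of all tested genes. List medians lie between −0.12 and 0.09. The 9 blue points of the BMP and activin row include SMAD1, SMAD9, ID1, ID2 and ID3, while SMAD5 and ID4 are grey (overlapping libraries).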

How the data were processed

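Reads were single-end from poly(A) RNA libraries of IMR-90 cells. According to the study's methods and the submitters' processing notes, the authors aligned trimmed reads to hg19 (HISAT2), kept unique alignments (SAMtools) and counted them per gene (featureCounts); the annotation and strand setting are not given in the sources used here. The signal in the deposited table is this count divided by 1 DESeq2 size factor per library, so a change common to all genes would not show. A second deposited table holds the authors' own DESeq2 comparison and was not used.

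Each library's values were divided by the smallest value above 0, taken as 1 read, which recovered the reads. Of the results, 100% were whole within a tolerance of 0.001 times the read number. At high counts that tolerance lets any value pass, so the check bears on lower counts. The main test was limma 3.58.1 (R 4.3.3), with a prior variance that follows mean expression (the trend), applied to log2(normalized count + 1) of 11313 genes with a mean of at least 10, two-sided, with Benjamini-Hochberg adjustment at 0.05. Fold changes on this scale understate those of low genes. Only 2 and 3 libraries limit the precision, and p-values measure the spread between these libraries. As alternatives, the pseudocount was set to 0.5 or 5, the minimum to none or 50, the prior variance to constant or robust, and the scaling to TMM or quantile; edgeR 4.0.16 (quasi-likelihood) and DESeq2 1.42.0 were run on recovered reads, replicate numbers were used as blocks, and libraries were left out in turn. The fits were first tested on simulated data, with planted changes larger than any fitted for a member. That test does not show how well changes of the members' size are found.

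All 10 members were named, and from each list the 2 genes with the largest rise and the 2 with the largest fall at a mean of at least 50, plus any that passed the test. The members, lists and tests were chosen with earlier results of these data known. Coordinates and transcript lengths came from GENCODE on GRCh37, the assembly of hg19. Some genes of the lists are not reported here by name.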

Additional observations from a re-analysis of the deposited data

How the results depend on the processing

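Over all values recomputed under 16 alternatives, 339 were classed as the same, 28 counts or medians moved, 4 values reversed, 2 became stronger and 2 weaker. A log2 difference was the same if it kept its sign and its side of the threshold, and a ratio if it kept its sign. A count was the same if equal or near (such as 5 or 8 genes called lower against 6). A list median was the same within the spread between the NSD2-KD libraries. Of the 339, 5 were list medians near 0 that changed sign: latency, storage and activation with quantile normalization (−0.0094) and without NSD2-2 (−0.03), and the target genes with the block and without NSD2-3 (0.03 in both) and without Ctr-2 (0.00038). TGFB2 was stronger without NSD2-KD replicate 3 and with the replicate number as a block (log2 difference −1.23 in both, limma adjusted p = 0.0369 and 0.0168). Replicate 3 exists in NSD2-KD alone, so the block takes up NSD2-3 and both fits rest on the same 4 libraries. Deviations of same-numbered libraries did not correlate (r = −0.0152 for number 1 and −0.0267 for number 2, over 11313 genes). The deviations of 2 Ctr-KD libraries mirror each other, so this check cannot exclude that the numbers pair libraries.

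Values that reversed when 1 library was left out were TGFBR2 without NSD2-1 (0.24, range over left-out libraries −0.46 to 0.24), TGFBR3 without NSD2-2 (−0.15, range −0.15 to 0.62), SMAD3 without NSD2-2 (−0.012, range −0.012 to 0.17) and the log2 ratio of TGFBR1 to TGFBR2 without NSD2-3 (0.28, range −0.37 to 0.28). None of these differences passed the test in any setting. The ranges were −1.23 to −0.56 for TGFB2 and −0.72 to −0.41 for SMAD2, whose limma, edgeR and DESeq2 adjusted p over all 16 alternatives stayed at or above 0.175. WHSC1 ran from −2.41 to −2.33 and missed the threshold with 1 Ctr-KD library left (limma adjusted p = 0.0926 without Ctr-1 and 0.0788 without Ctr-2); the lone library is then assumed to vary like the others, and limma called 0 genes.

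Members called lower numbered 1 (TGFB2) with the block and between 0 and 1 with a library left out. Genes called lower numbered 1 by limma without the trend, 11 by edgeR, 44 by DESeq2, 84 with the block and 0 to 22 with a library left out, where the main fit had 6. Genes called higher numbered 0 without the trend, 8 with quantile normalization, 14 by DESeq2, 18 with the block and 0 to 8 with a library left out, where the main fit had 4. List genes called were 1 lower (RBL1) and 1 higher (CDKN1A) by DESeq2, 1 lower (CTGF) and 1 higher (CDKN1A) with the block, and 0 to 1 higher with a library left out (CDKN1A without NSD2-1). The cause of these shifts was not tested. Depth limits TGFB3 and, at 21 to 56 reads per library, TGFBR3.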
